A study of Mus musculus with 13 samples.

Results

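The 33 collagen genes detected in adult mouse sciatic nerve are described here across 13 nerves, crushed or uncrushed, with or without the mTORC1 subunit Raptor in Schwann cells (SCs). They were chosen as protein-coding genes named Col, a number, a and a number, with 50 or more counts in at least 2 libraries. Of 40787 genes measured, 44 were protein-coding collagen genes, and 33 of these reached the minimum. They comprised 11 fibrillar collagens, 7 collagens of basement membranes, and 15 others. The other 11 (Col4a6, Col6a4, Col6a6, Col9a1, Col10a1, Col13a1, Col17a1, Col19a1, Col20a1, Col22a1, and Col25a1) were below it and were not tested. Just outside the minimum, Col10a1, Col17a1, and Col20a1 reached it in 1 library each, with highest counts of 70, 59, and 56. Just inside it, Col11a2 reached it in 5 libraries, with a highest count of 95.

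RaptorKO mice carried homozygous floxed Rptor alleles and a tamoxifen-inducible CreERT2 transgene that acts in cells of the SC lineage. Controls carried the same floxed alleles and no Cre, and both genotypes received tamoxifen when adult, at the age of 2 months. The sciatic nerve of 1 side was crushed 2 months after tamoxifen, and the nerve distal to the lesion and the uncrushed contralateral nerve were taken at 5 days post crush (5 dpc). The groups were control contralateral (n = 3), RaptorKO contralateral (n = 4), control injured (n = 3), and RaptorKO injured nerves (n = 3), with 1 library per nerve. RNA came from whole nerves without epineurium, so fewer cells of a type and less RNA per cell cannot be told apart. Injured and contralateral libraries carry the same numbers, but the labels do not say whether equal numbers mark the same mouse. The study crushed 1 side and sequenced injured nerves with their corresponding contralateral nerves, so the 2 nerves may share a mouse. The main fits did not pair them, and p-values measure the spread between these libraries.

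Collagens are triple helices of 3 chains that assemble inside the cell, are secreted, trimmed, and cross-linked. Fibrillar collagens form the fibrils of the endoneurium, fibril-associated collagens (FACITs) decorate them, and type IV collagen forms the sheet-like network of the basement membrane that surrounds each SC and its axon. After a crush the axons distal to the lesion degenerate, SCs dedifferentiate and clear myelin, and macrophages enter, while the basement membrane tubes remain and guide regrowing axons. In nerve, collagen is known to be made by endoneurial fibroblasts, perineurial and vascular cells, and SCs themselves.

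Library totals ranged from 8200458 to 13581775 counts, and levels are given as CPM, the count of a gene per 1e+06 counts of the TMM-scaled library, listed from replicate 1 upward. Rptor, the targeted gene, lay between 35.2 and 52.7 CPM in the 6 control libraries and between 22.1 and 28.8 CPM in the 7 RaptorKO libraries, without overlap. RaptorKO contralateral 1 and 3 stood apart from the other contralateral libraries. Their summed CPM of 5 perineurial markers was 596 and 879, against 351 to 498 in the other 5, and the sum of 5 adipocyte markers was 302 in RaptorKO contralateral 3. Among injured nerves, RaptorKO injured 2 had a macrophage marker sum of 1813, against 2727 to 3702 in the other 5. The 8 markers of SCs and myelin summed to between 72947 and 93738 CPM in contralateral and between 2077 and 3357 CPM in injured nerves. Adjusted p-values come from the quasi-likelihood test of edgeR, adjusted after Benjamini and Hochberg across every gene tested. A gene passed, and is said to have risen or fallen, if its adjusted p was under 0.05 and it differed more than 1.2-fold.

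Collagen genes held 0.857% ± 0.035 of all counts (mean ± SD) in control contralateral (n = 3), 1.10% ± 0.14 in RaptorKO contralateral (n = 4), 1.24% ± 0.18 in control injured (n = 3), and 1.47% ± 0.21 in RaptorKO injured nerves (n = 3). The control contralateral libraries ranged from 0.818% to 0.886%, below the lowest RaptorKO contralateral library at 0.893%. Scaled for exon length, Col1a1 led in each of the 4 groups, with mean values of 155, 204, 305, and 448 CPM per kilobase. In control contralateral nerves Col4a2 (144 CPM per kilobase), Col4a1 (143), and Col1a2 (138) came next, and these 4 were not separated beyond their spread. In control injured nerves the next places were held by Col1a2 (165 CPM per kilobase), Col3a1 (157), Col18a1 (149), and Col5a2 (134). The type IV chains had left the first 5 places in both injured groups. The 5 collagen genes with the highest CPM held 59.96% of all collagen CPM in control contralateral and 66.9% in control injured nerves.

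**Figure D1:**
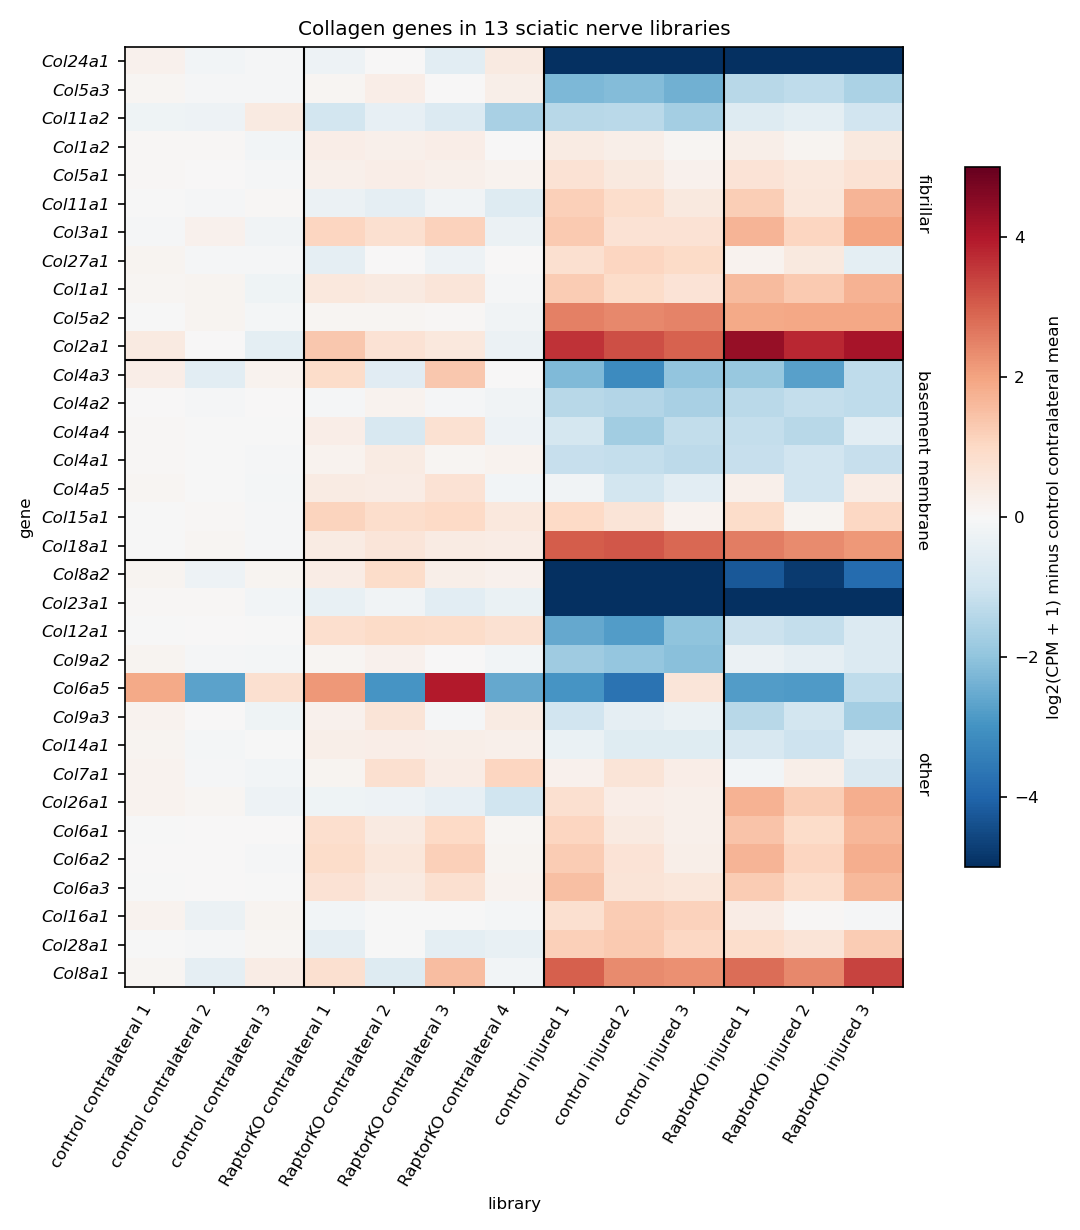
Levels of the 33 collagen genes (rows, by group) in the 13 libraries (columns), as log2(CPM + 1) minus the mean of the control contralateral libraries, with colours saturating at -5 and 5. Col24a1, Col8a2, and Col23a1 were low in all 6 injured libraries, Col2a1, Col5a2, Col18a1, and Col8a1 were high in all 6, and Col6a5 varied most between libraries of the same group.

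Crush split the family. In control nerves 16 collagen genes rose, 13 fell, and 4 did not pass, where 65.3% of all 12430 tested genes passed, 32.4% higher and 32.9% lower. Their median log2 fold change was 0.40 and that of all tested genes was -0.0015. In RaptorKO nerves 13 rose, 14 fell, and 6 did not pass, where 58.9% of 12515 genes passed, 30.5% higher and 28.5% lower. Injured and contralateral libraries did not overlap for 32 of 33 collagen genes in control and for 21 of 33 in RaptorKO nerves, where 70.9% and 60.6% of all genes did not overlap. The shares that passed, 29 and 27 of 33, were above these backgrounds, and the share that did not overlap was near its background in RaptorKO nerves. Both genotypes shared 13 genes that rose and 11 that fell. Of the rest, 3 rose and 2 fell in control nerves only by the threshold, 3 fell in RaptorKO nerves only by the threshold, and Col1a2 passed in neither. With injury the summed CPM of fibroblast markers went from 3586 to 4453 in control contralateral to 1571 to 2675 in control injured nerves, and that of macrophage markers from 161 to 186 to 2727 to 3375. Of the 10 fibroblast markers 6 fell and 1 rose there, and all 8 macrophage markers rose. The part of these shifts in the collagen changes was not tested.

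Among fibrillar collagens, 7 of 11 rose and 3 fell after crush in control nerves, and 6 rose and 2 fell in RaptorKO nerves. Of all genes, 32.4% rose and 32.9% fell in control and 30.5% rose and 28.5% fell in RaptorKO nerves. Col1a1, the major chain of type I collagen, was at 1079, 1109, and 861 CPM in control contralateral, 1451, 1386, 1533, and 974 in RaptorKO contralateral, 2447, 1916, and 1640 in control injured, and 3001, 2487, and 3342 in RaptorKO injured nerves. Injured and contralateral libraries did not overlap in either genotype, and Col1a1 rose by 0.95 ± 0.15 (log2 fold change ± standard error, adjusted p = 0.000116) in control and by 1.13 ± 0.16 (adjusted p = 0.000123) in RaptorKO nerves. Col1a2, its partner chain, was at 1770, 1801, and 1572 CPM in control contralateral, 2181, 2069, 2177, and 1750 in RaptorKO contralateral, 2266, 2075, and 1824 in control injured, and 2102, 1881, and 2394 in RaptorKO injured nerves. Its changes were 0.23 ± 0.10 (adjusted p = 0.062) and 0.05 ± 0.12 (adjusted p = 0.728), so that of the 2 type I chains only Col1a1 passed. Without control injured 3 the change of Col1a2 in control nerves was 0.33 (adjusted p = 0.00923) and passed. Col3a1, which forms type III collagen alone, was at 771, 918, and 712 CPM in control contralateral, 1659, 1383, 1753, and 646 in RaptorKO contralateral, 1991, 1314, and 1305 in control injured, and 2575, 1654, and 3157 in RaptorKO injured nerves. It rose by 0.91 ± 0.16 (adjusted p = 0.000353) in control nerves, where the groups did not overlap. In RaptorKO nerves the groups overlapped, the change was 0.85 ± 0.31 (adjusted p = 0.034), and it was lost without RaptorKO injured 1 (adjusted p = 0.0884), RaptorKO injured 3 (0.142), or RaptorKO contralateral 2 (0.0566).

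Type V collagen starts and sizes fibrils, and its chains moved in opposite directions. Col5a2 was at 224, 249, and 217 CPM in control contralateral, 248, 248, 238, and 201 in RaptorKO contralateral, 1335, 1221, and 1297 in control injured, and 861, 885, and 890 in RaptorKO injured nerves. All injured libraries were above all contralateral ones, and Col5a2 rose 5.49-fold in control (log2 2.46 ± 0.11, adjusted p = 1.86e-09) and 3.75-fold in RaptorKO nerves (1.91 ± 0.10, adjusted p = 9.06e-08). Col5a3, a chain that SCs are known to secrete, was at 614, 548, and 547 CPM in control contralateral, 612, 719, 576, and 696 in RaptorKO contralateral, 118, 126, and 108 in control injured, and 218, 234, and 188 in RaptorKO injured nerves. It fell in every injured library, by 2.30 ± 0.11 (adjusted p = 4.06e-09) in control and by 1.61 ± 0.12 (adjusted p = 1.11e-06) in RaptorKO nerves. Col5a1 was at 323, 318, and 296 CPM in control contralateral, 375, 393, 375, and 356 in RaptorKO contralateral, 518, 441, and 364 in control injured, and 508, 444, and 513 in RaptorKO injured nerves. It rose modestly, by 0.47 ± 0.13 (adjusted p = 0.00599) and 0.38 ± 0.09 (adjusted p = 0.00448), and its exons overlap 2 genes on the other strand, whose reads cannot be told apart from its own unless strand was used in counting.

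Col2a1, the chain of the type II collagen of cartilage, had the largest rise. It was at 8.04, 5.57, and 3.72 CPM in control contralateral, 15.8, 9.81, 8.33, and 4.40 in RaptorKO contralateral, 79.2, 59.5, and 49.3 in control injured, and 135, 88.3, and 112 in RaptorKO injured nerves. The rise was 10.6-fold in control (log2 3.40 ± 0.25, adjusted p = 1.89e-07) and 11.5-fold in RaptorKO nerves (3.52 ± 0.31, adjusted p = 3.68e-06). The 5 markers of cartilage and bone summed to at most 1.90 CPM in any library, with Matn1 and Ibsp at 0 in all 13. Col11a1, which joins type II or type V chains in fibrils, ranged from 32.7 to 54.5 CPM in contralateral and from 72.4 to 172 CPM in injured nerves, and rose by 0.86 ± 0.15 (adjusted p = 0.00026) in control and 1.63 ± 0.23 (adjusted p = 0.000127) in RaptorKO nerves. Col27a1, a minor fibrillar collagen, was at 71.4, 62.9, and 61.9 CPM in control contralateral, 47.9, 65.5, 53.9, and 66.6 in RaptorKO contralateral, 115, 137, and 127 in control injured, and 74.7, 92.2, and 46.3 in RaptorKO injured nerves. It rose in control nerves (0.92 ± 0.10, adjusted p = 5.16e-06), whereas the change in RaptorKO nerves was 0.28 ± 0.21 (adjusted p = 0.275) with overlapping groups. Without RaptorKO injured 3 it was 0.50 (adjusted p = 0.0226) and passed.

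The largest falls of the family after crush in control nerves were those of Col24a1, Col8a2, and Col23a1. In RaptorKO nerves Col24a1 and Col8a2 also led, and the fitted fall of Col6a5, whose groups overlapped, came before that of Col23a1. Col24a1, another minor fibrillar collagen, was at 180, 143, and 149 CPM in control contralateral, 132, 157, 108, and 212 in RaptorKO contralateral, 0.642, 0.8288, and 2.26 in control injured, and 1.25, 1.66, and 1.75 in RaptorKO injured nerves. In counts, 1124 to 2046 per contralateral library stood against 7 to 23 per injured library, a 129-fold fall in control (log2 -7.02 ± 0.25, adjusted p = 3.89e-10) and a 97.5-fold fall in RaptorKO nerves (-6.61 ± 0.29, adjusted p = 3.32e-08). Col8a2, a short-chain collagen that forms hexagonal lattices with Col8a1, was at 55.7, 42.3, and 55.9 CPM in control contralateral, 65.9, 96.6, 62.0, and 59.8 in RaptorKO contralateral, 0.367, 0.552, and 0.295 in control injured, and 1.78, 0.868, and 2.57 in RaptorKO injured nerves. Only 3 to 6 counts per library remained in control injured and 11 to 28 in RaptorKO injured nerves, so that the log2 changes of -6.96 ± 0.25 (adjusted p = 3.9e-10) and -5.37 ± 0.32 (adjusted p = 2.08e-07) rest on small counts. Col23a1, a transmembrane collagen, was at 615, 603, and 536 CPM in control contralateral, 447, 519, 400, and 465 in RaptorKO contralateral, 15.7, 11.1, and 9.44 in control injured, and 14.7, 15.2, and 16.4 in RaptorKO injured nerves. It was the fifth collagen per kilobase in control contralateral nerves and fell 49.3-fold in control (-5.62 ± 0.18, adjusted p = 1.81e-10) and 29.7-fold in RaptorKO nerves (-4.89 ± 0.13, adjusted p = 3.29e-09).

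Col8a1, the partner chain of Col8a2, went the other way. It was at 34.9, 23.1, and 41.5 CPM in control contralateral, 56.8, 20.3, 96.0, and 29.6 in RaptorKO contralateral, 263, 172, and 160 in control injured, and 227, 174, and 341 in RaptorKO injured nerves. The rise was 5.90-fold in control (log2 2.56 ± 0.22, adjusted p = 6.78e-07) and 4.86-fold in RaptorKO nerves (2.28 ± 0.44, adjusted p = 0.00114), and in the RaptorKO contralateral group the 2 libraries with high perineurial markers were the highest.

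The promoters of the 3 genes that fell most in control nerves, and of Col8a1, are shown for the motifs they hold. The sequences are those of RefSeq on GRCm38.p6, 5′ to 3′ on the strand of the gene, and give the 250 bases before the start of transcription, with 1 base more for Col24a1 so that its motif is whole. Capitals mark a motif on either strand, and 4 motifs were searched. The cyclic AMP response element was searched as TGACGTCA. The GC box was searched as GGGCGG. The AP-1 motif was searched as TGANTCA, and the CCAAT box by the letters of its name. Neighbouring GC boxes can share bases.
Col24a1, chr3:145292222-145292472, plus strand: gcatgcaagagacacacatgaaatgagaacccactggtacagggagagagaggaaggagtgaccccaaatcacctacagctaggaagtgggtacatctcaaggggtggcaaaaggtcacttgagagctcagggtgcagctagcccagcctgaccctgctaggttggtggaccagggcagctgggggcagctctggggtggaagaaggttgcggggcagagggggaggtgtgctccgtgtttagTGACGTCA
Col8a2, chr4:126286544-126286793, plus strand: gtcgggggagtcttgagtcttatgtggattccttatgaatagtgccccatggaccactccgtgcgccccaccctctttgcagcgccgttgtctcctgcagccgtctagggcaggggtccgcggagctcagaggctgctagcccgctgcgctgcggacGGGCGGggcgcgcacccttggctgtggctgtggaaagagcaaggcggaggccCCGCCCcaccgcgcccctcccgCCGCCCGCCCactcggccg
Col23a1, chr11:51289670-51289919, plus strand: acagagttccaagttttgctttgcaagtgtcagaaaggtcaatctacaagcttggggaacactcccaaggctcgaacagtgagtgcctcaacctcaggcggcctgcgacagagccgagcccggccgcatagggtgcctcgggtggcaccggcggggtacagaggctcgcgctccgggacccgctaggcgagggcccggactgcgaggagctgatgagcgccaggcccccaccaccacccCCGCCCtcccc
Col8a1, chr16:57754738-57754987, minus strand: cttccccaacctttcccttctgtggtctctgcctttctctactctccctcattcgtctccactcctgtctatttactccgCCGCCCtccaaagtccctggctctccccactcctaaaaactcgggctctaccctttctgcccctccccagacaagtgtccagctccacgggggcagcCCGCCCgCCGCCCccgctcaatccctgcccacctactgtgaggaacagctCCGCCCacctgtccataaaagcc

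The Col24a1 window holds the cyclic AMP response element across the start itself, from 7 bases before it, and none of the other 3 motifs. The windows of Col8a2 and Col8a1 hold 4 GC boxes each and that of Col23a1 holds 1, so that the partner chains that moved in opposite directions share this motif. Over windows of 300 bases, 250 before and 50 after the start, 25 of the 33 collagen genes were matched. The genes with no matched window were Col1a1, Col2a1, Col4a3, Col5a2, Col9a3, Col12a1, Col14a1, and Col26a1. A GC box was found in 18 of 25 genes and in 35.7% of all 32851 windows, and a CCAAT box in 9 of 25 genes and in 37.4% of all windows. The cyclic AMP response element was found only in Col24a1 (1.79% of all windows) and the AP-1 motif only in Col6a1 (7.81% of all windows). The AP-1 motif of Col6a1 begins 90 bases before its RefSeq start. The GENCODE model of Col6a1 runs from 76708792 to 76726168 on the minus strand, so by that model the motif lies inside the gene.
Col6a1, chr10:76726121-76726141, minus strand, AP-1 motif in capitals: gatgctgTGACTCActcagct

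In the basement membrane group, 5 of 7 genes fell and 2 rose in control nerves, and 4 fell and 1 rose in RaptorKO nerves. Of all genes, 32.9% fell and 32.4% rose in control and 28.5% fell and 30.5% rose in RaptorKO nerves. Col4a1, a chain of the common type IV network, was at 1112, 1066, and 1033 CPM in control contralateral, 1214, 1434, 1142, and 1220 in RaptorKO contralateral, 478, 474, and 427 in control injured, and 481, 552, and 485 in RaptorKO injured nerves. Col4a2, the other chain of that network, was at 970, 928, and 967 CPM in control contralateral, 917, 1085, 906, and 839 in RaptorKO contralateral, 368, 345, and 311 in control injured, and 379, 416, and 399 in RaptorKO injured nerves. Injured libraries lay below contralateral ones without overlap for both. Col4a1 fell by 1.25 ± 0.10 (adjusted p = 3.53e-07) and 1.31 ± 0.11 (adjusted p = 2.68e-06), and Col4a2 by 1.51 ± 0.10 (adjusted p = 8.6e-08) and 1.24 ± 0.11 (adjusted p = 3.85e-06), in control and RaptorKO nerves. The pair is arranged head to head on chromosome 8 of GRCm38, with Col4a1 from 11198423 to 11312826 on the minus and Col4a2 from 11312805 to 11449287 on the plus strand, and the gene models overlap by 22 bases.

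Col4a3, Col4a4, and Col4a5 form the type IV network known from the kidney glomerulus and were far lower. Col4a3 was at 11.1, 5.73, and 9.80 CPM in control contralateral, 17.3, 5.52, 23.7, and 8.80 in RaptorKO contralateral, 1.10, 0.0921, and 1.47 in control injured, and 1.61, 0.474, and 3.03 in RaptorKO injured nerves. It fell by 3.34 ± 0.55 (adjusted p = 0.000194) and 3.04 ± 0.62 (adjusted p = 0.0017), with 1 to 15 counts left per control injured library and a gene on the other strand over its exons. Col4a4, 71 bases from Col4a3 and on the other strand, ranged from 9.73 to 30.4 CPM in contralateral and from 4.60 to 12.0 CPM in injured nerves, and fell 2.59-fold (adjusted p = 0.000318) in control and 2.30-fold (adjusted p = 0.0183) in RaptorKO nerves. In RaptorKO nerves its groups overlapped, and it did not pass without RaptorKO injured 1 (adjusted p = 0.0681) or RaptorKO injured 2 (0.0706). Col4a5 fell by 0.58 ± 0.22 (adjusted p = 0.0354) in control nerves, a call lost without any of control contralateral 1 or 2 or control injured 2 or 3 (adjusted p from 0.0688 to 0.147), and its change in RaptorKO nerves was -0.41 ± 0.32 (adjusted p = 0.286), or -0.65 (adjusted p = 0.0469) with the replicate number as a block.

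The multiplexins, which sit at the outer face of basement membranes, rose where type IV chains fell. Col18a1, the precursor of endostatin, was at 126, 138, and 123 CPM in control contralateral, 172, 196, 174, and 166 in RaptorKO contralateral, 1073, 1114, and 948 in control injured, and 774, 667, and 583 in RaptorKO injured nerves. Col18a1 rose 7.94-fold in control (log2 2.99 ± 0.11, adjusted p = 6.1e-10) and 3.80-fold in RaptorKO nerves (1.93 ± 0.11, adjusted p = 2.12e-07). Col15a1 was at 295, 310, and 284 CPM in control contralateral, 644, 550, 588, and 427 in RaptorKO contralateral, 591, 458, and 333 in control injured, and 560, 324, and 604 in RaptorKO injured nerves. It rose in control nerves (0.61 ± 0.17, adjusted p = 0.00668), while its change in RaptorKO nerves, whose contralateral level was already higher, was -0.16 ± 0.21 (adjusted p = 0.527). A gene on the other strand overlaps its exons.

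Of the 15 other collagens, 7 rose and 5 fell after crush in control nerves, and 6 rose and 8 fell in RaptorKO nerves. The shares of all genes were 32.4% higher and 32.9% lower in control and 30.5% higher and 28.5% lower in RaptorKO nerves. The share of these 15 that fell in control nerves was near that background. Type VI collagen forms beaded filaments around cells, and its 3 common chains rose together. Col6a2 was at 146, 146, and 137 CPM in control contralateral, 267, 210, 332, and 155 in RaptorKO contralateral, 348, 230, and 176 in control injured, and 470, 298, and 506 in RaptorKO injured nerves. Its rise was 0.79 ± 0.19 (adjusted p = 0.00292) in control and 0.81 ± 0.24 (adjusted p = 0.0149) in RaptorKO nerves. Col6a1 and Col6a3 rose by 0.62 ± 0.17 (adjusted p = 0.00664) and 0.96 ± 0.20 (adjusted p = 0.00132) in control and by 0.71 ± 0.22 (adjusted p = 0.0182) and 0.72 ± 0.19 (adjusted p = 0.00704) in RaptorKO nerves. In RaptorKO nerves the groups of Col6a1 and of Col6a2 overlapped, and the rises of Col6a1 and Col6a2 were lost without RaptorKO injured 1 (adjusted p = 0.0566 for both) or RaptorKO injured 3 (0.0817 and 0.0624).

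Col6a5, a further type VI chain, did not follow its relatives. It was at 52.0, 1.23, and 23.6 CPM in control contralateral, 63.5, 0.843, 221, and 1.42 in RaptorKO contralateral, 0.825, 0.0921, and 20.5 in control injured, and 1.07, 1.03, and 4.96 in RaptorKO injured nerves. The libraries with over 20 CPM were control contralateral 1 and 3, RaptorKO contralateral 1 and 3, and control injured 3, and these same 5 were the libraries with an adipocyte marker sum over 20 CPM, where the other 8 had at most 0.388. The fitted change was -1.87 ± 1.16 (adjusted p = 0.173) in control and -4.96 ± 1.65 (adjusted p = 0.024) in RaptorKO nerves. In control nerves it passed without control injured 3 (-5.77, adjusted p = 0.00338) or control contralateral 2 (-2.45, adjusted p = 0.0467), and with the replicate number as a block (-2.45, adjusted p = 0.0274). It also passed there without a count filter (-1.85, adjusted p = 1.23e-07). The injured library was lower than the contralateral library of the same number for each of the 3 control numbers. The groups overlapped in both genotypes, and the RaptorKO call was lost without RaptorKO injured 1 (adjusted p = 0.0843), RaptorKO injured 2 (0.0773), or RaptorKO contralateral 3 (0.0527).

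Among FACITs, Col12a1 was at 136, 138, and 136 CPM in control contralateral, 245, 268, 262, and 235 in RaptorKO contralateral, 22.6, 19.0, and 33.1 in control injured, and 63.4, 59.4, and 84.2 in RaptorKO injured nerves. It fell by 2.48 ± 0.16 (adjusted p = 7.49e-08) in control and by 1.88 ± 0.13 (adjusted p = 7.1e-07) in RaptorKO nerves, and within each kind of nerve the RaptorKO libraries lay above all control libraries. Col14a1, which like Col12a1 binds to type I fibrils, ranged from 235 to 319 CPM in contralateral and from 123 to 200 CPM in injured nerves, and fell by 0.54 ± 0.11 (adjusted p = 0.000847) and 1.04 ± 0.13 (adjusted p = 5.39e-05). Col16a1 was at 99.6, 72.0, and 97.5 CPM in control contralateral, 81.4, 87.7, 87.5, and 83.1 in RaptorKO contralateral, 156, 218, and 200 in control injured, and 116, 91.7, and 84.8 in RaptorKO injured nerves. It rose in control nerves (1.07 ± 0.14, adjusted p = 3.91e-05), and its change in RaptorKO nerves was 0.19 ± 0.12 (adjusted p = 0.169) with overlapping groups. Col9a2, a chain of the type IX collagen that coats type II fibrils, was at 30.5, 26.0, and 25.7 CPM in control contralateral, 28.9, 32.1, 27.7, and 25.1 in RaptorKO contralateral, 7.25, 6.45, and 5.70 in control injured, and 22.2, 19.5, and 16.6 in RaptorKO injured nerves. It fell 4.31-fold in control (log2 -2.11 ± 0.17, adjusted p = 4.66e-07) and 1.47-fold in RaptorKO nerves (-0.56 ± 0.15, adjusted p = 0.00803). Col9a3, its partner, ranged from 4.80 to 9.58 CPM in contralateral and from 1.10 to 4.42 CPM in injured nerves, with changes of -0.70 ± 0.32 (adjusted p = 0.0702) in control and -2.07 ± 0.37 (adjusted p = 0.00068) in RaptorKO nerves, and it overlaps Tcfl5 on the other strand. In control nerves Col9a3 passed with the exact test (adjusted p = 0.046) or without control injured 3 (-0.85, adjusted p = 0.0496).

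Col28a1, a collagen found mainly in peripheral nerve, was at 123, 120, and 134 CPM in control contralateral, 91.8, 123, 90.2, and 97.0 in RaptorKO contralateral, 291, 314, and 259 in control injured, and 228, 195, and 300 in RaptorKO injured nerves. It rose by 1.17 ± 0.10 (adjusted p = 7.69e-07) in control and by 1.26 ± 0.16 (adjusted p = 5.14e-05) in RaptorKO nerves, and no injured library overlapped a contralateral one. Col26a1, a little studied secreted collagen, was at 43.9, 41.6, and 32.7 CPM in control contralateral, 33.6, 32.6, 29.4, and 19.0 in RaptorKO contralateral, 68.6, 50.1, and 46.7 in control injured, and 134, 92.8, and 140 in RaptorKO injured nerves. Its rise was 0.46 ± 0.16 (adjusted p = 0.0234) in control, lost without control injured 1 (adjusted p = 0.0949) or control contralateral 3 (0.0965), and 2.08 ± 0.20 (adjusted p = 7.1e-06) in RaptorKO nerves. Col7a1, the collagen of anchoring fibrils, ranged from 5.88 to 23.3 CPM over all libraries, with a change of 0.40 ± 0.20 (adjusted p = 0.0976) in control and -0.84 ± 0.30 (adjusted p = 0.0343) in RaptorKO nerves. The latter was lost without any of RaptorKO injured 1 or 3 or RaptorKO contralateral 2 or 4 (adjusted p from 0.069 to 0.112). The fibrillar Col11a2, at 1.28 to 9.31 CPM, fell by 2.00 ± 0.36 (adjusted p = 0.000445) in control nerves and changed by 0.17 ± 0.41 (adjusted p = 0.745) in RaptorKO nerves.

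**Figure D2:**
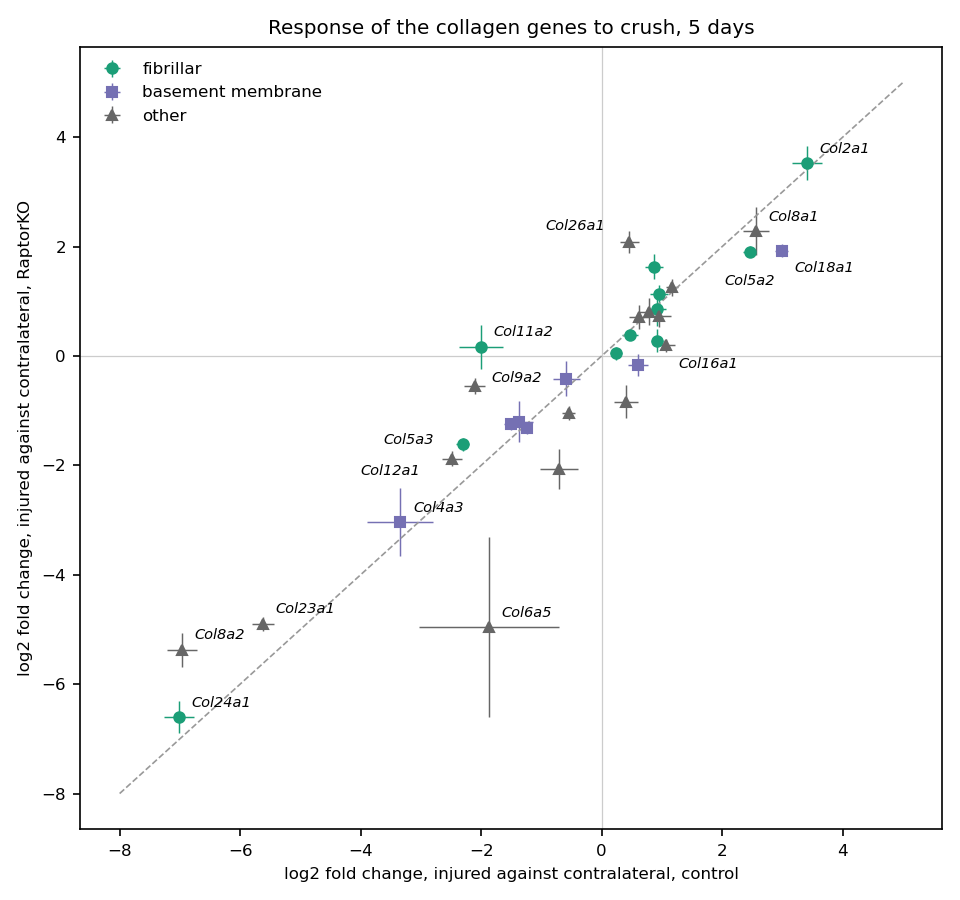
Log2 fold change of each collagen gene at 5 dpc, injured against contralateral, in control (horizontal) and RaptorKO nerves (vertical), with bars of 1 standard error and the line of equal change dashed. Of the genes with a tested difference between genotypes, Col18a1, Col16a1, and Col5a2 lie below the line and Col9a2, Col26a1, and Col5a3 above it, while Col6a5 lies furthest below and Col11a2 furthest above and neither passed that test.

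The comparison of RaptorKO with control injured nerves asks how loss of mTORC1 in SCs bears on the crushed nerve. Of the 28 collagen genes tested, 6 were higher and 4 were lower in RaptorKO nerves, where 8.54% of all 12040 tested genes passed, 4.09% higher and 4.44% lower. The collagen share of 10 of 28 was above this background in both directions. The median log2 difference was 0.31 for collagens and 0.0014 for all genes, 20 of 28 values were above 0, and 12 of 28 genes had groups that did not overlap, where 26.2% of all genes did not. Col4a3, Col8a2, Col9a3, Col11a2, and Col24a1 had too few counts in injured nerves to be tested. By group, 3 fibrillar collagens were higher and 2 lower, 1 basement membrane collagen was lower, and 3 of the others were higher and 1 lower.

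Higher in RaptorKO injured nerves were Col9a2 (log2 difference 1.60 ± 0.20, adjusted p = 0.00106), Col12a1 (1.48 ± 0.20, adjusted p = 0.00168), Col26a1 (1.16 ± 0.17, adjusted p = 0.00274), Col5a3 (0.88 ± 0.12, adjusted p = 0.00153), Col2a1 (0.85 ± 0.18, adjusted p = 0.0152), and Col1a1 (0.57 ± 0.16, adjusted p = 0.0452). Lower were Col16a1 (-0.96 ± 0.15, adjusted p = 0.00362), Col27a1 (-0.81 ± 0.20, adjusted p = 0.0304), Col18a1 (-0.62 ± 0.13, adjusted p = 0.0152), and Col5a2 (-0.53 ± 0.11, adjusted p = 0.0114). For each of these 10 the 3 RaptorKO injured libraries lay wholly above or below the 3 control injured libraries. The 4 that were lower had all risen with crush in control nerves, to levels that no RaptorKO injured library reached. Col9a2, Col12a1, and Col5a3 had fallen with crush in both genotypes and were higher in RaptorKO injured nerves. The 2 comparisons share the control injured libraries. The common type IV chains differed by 0.15 ± 0.11 (Col4a1, adjusted p = 0.503) and 0.24 ± 0.11 (Col4a2, adjusted p = 0.24), and Col28a1 by -0.24 ± 0.15 (adjusted p = 0.404).

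Col9a2, Col12a1, Col26a1, Col5a3, and Col16a1 passed under all 13 alternative analyses. Col1a1 and Col2a1 passed under 6 and 8 of them, and each was lost without control injured 2 (adjusted p = 0.17 and 0.0687), control injured 3 (0.149 and 0.0658), or RaptorKO injured 1 (0.163 and 0.0784), and Col1a1 also without RaptorKO injured 3 (0.1247) or with the replicate number as a block (0.0638). Here that block joins different mice by number alone. Col18a1 was lost without control injured 2 (adjusted p = 0.0797), Col5a2 without RaptorKO injured 1 (0.0663), and Col27a1 without either of these or without control injured 3 (0.0865 to 0.111). With RaptorKO injured 2 left out, 11 rather than 6 were higher, Col3a1 (log2 difference 0.91), Col6a1 (0.90), Col6a2 (0.97), Col4a5 (0.89), and Col11a1 (0.63) among them. Over all genes tested, 493 were higher with every library and 484 without that one. In the full set Col3a1, Col6a1, and Col6a2 had differences of 0.69 ± 0.22 (adjusted p = 0.0823), 0.73 ± 0.21 (adjusted p = 0.061), and 0.77 ± 0.24 (adjusted p = 0.07) with overlapping groups. With every library kept, all 3 passed under the exact test (adjusted p = 0.0472, 0.02, and 0.0234). They also passed without a count filter (6.1e-05, 4.27e-05, and 1.8e-05) or without control injured 1 (0.038, 0.0161, and 0.0184).

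Markers of some other cells also differed between the injured groups. Of all genes tested, 4.09% were higher and 4.44% lower in RaptorKO injured nerves. Endothelial markers summed to between 273 and 409 CPM in control and between 492 and 752 CPM in RaptorKO injured nerves, with 7 of 8 higher. Those of vascular smooth muscle and pericytes summed to between 489 and 604 against between 932 and 1280 CPM, with 6 of 7 tested higher. Perineurial markers summed to between 133 and 172 against between 187 and 244 CPM, without overlap, with 1 of 5 higher. Fibroblast markers summed to between 1571 and 2675 against between 2312 and 4212 CPM, overlapping, with 3 of 8 tested higher, and mast cell markers to between 8.75 and 52.9 against between 107 and 200 CPM, with 5 of 6 higher. SC and myelin markers summed to between 2650 and 3357 against between 2077 and 2659 CPM, overlapping, with 1 of 8 lower. Macrophage markers summed to between 2727 and 3375 against between 1813 and 3702 CPM, overlapping, with 0 of 8 higher and 0 lower. Erythrocyte markers summed to between 2.29 and 14.5 against between 25.3 and 44.4 CPM, with 2 of 2 tested higher. The part of these cells in the collagen differences was not tested.

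**Figure D3:**
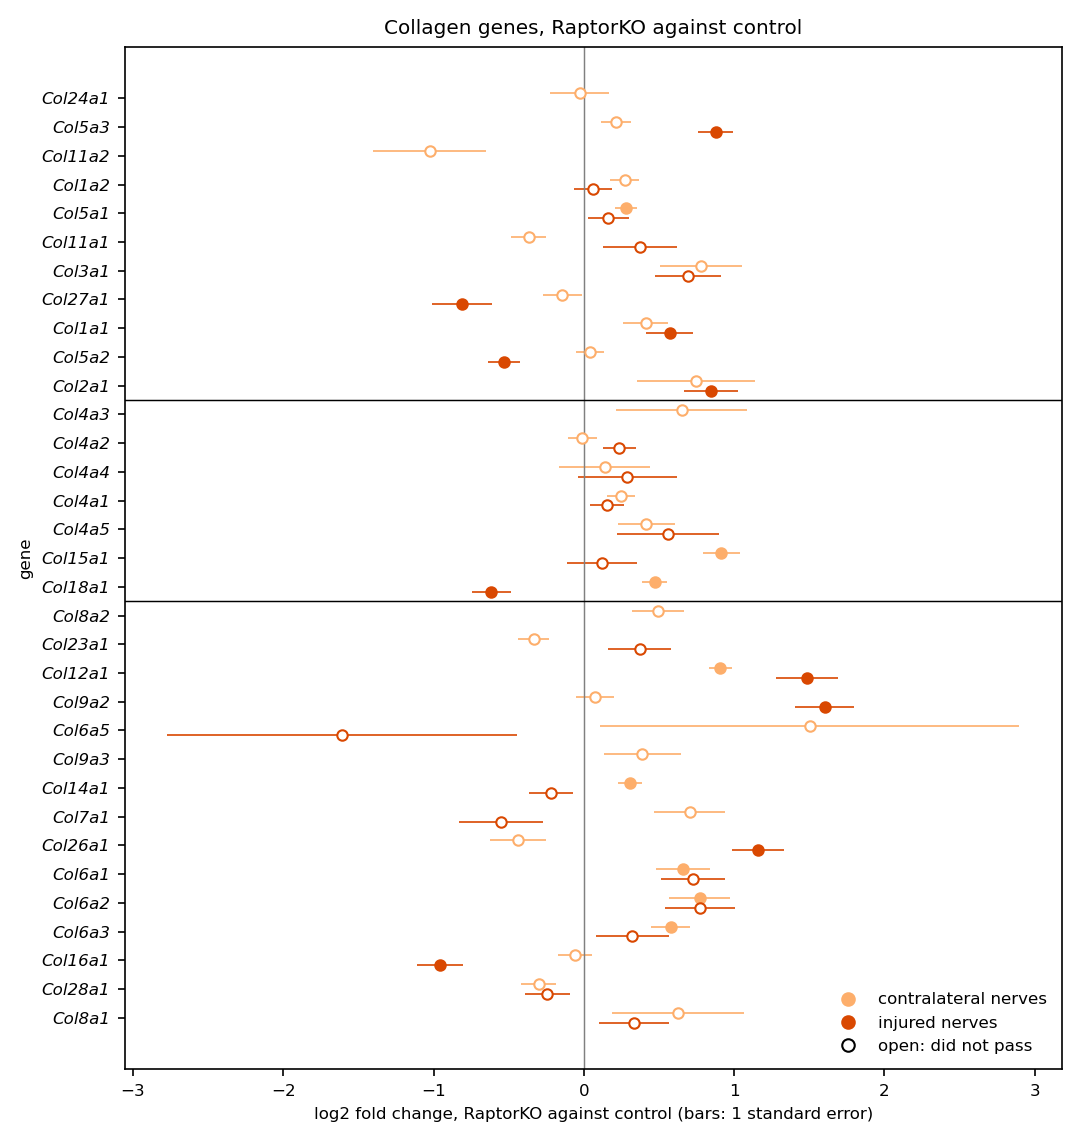
Log2 fold change of each collagen gene, RaptorKO against control, in contralateral (light) and injured nerves (dark), with bars of 1 standard error. Filled points passed the test, 8 in contralateral and 10 in injured nerves, and Col12a1 was higher in both whereas Col18a1 was higher in contralateral and lower in injured nerves.

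In contralateral nerves, the baseline of the genotype, 8 of 33 collagen genes were higher in RaptorKO and 0 lower, where 10.2% of all 11878 tested genes passed, 4.49% higher and 5.68% lower. At an unadjusted p below 0.05 there were 20 of 33. The share of all genes at that looser threshold is not given, so this count has no background. With DESeq2 12 genes were higher and 1, Col23a1, was lower (adjusted p = 0.012). The median log2 difference was 0.31 against 0.012 for all genes, 24 of 33 values were above 0, and the groups of 13 did not overlap, where 23.7% of all genes did not. Col12a1 (0.91 ± 0.08, adjusted p = 7.69e-05), Col15a1 (0.91 ± 0.12, adjusted p = 0.00112), and Col18a1 (0.47 ± 0.08, adjusted p = 0.00651) passed under all 15 alternative analyses. Type VI chains followed, with Col6a2 (0.77 ± 0.20, adjusted p = 0.0365), Col6a1 (0.66 ± 0.18, adjusted p = 0.0436), and Col6a3 (0.58 ± 0.13, adjusted p = 0.0194), and then Col14a1 (0.31 ± 0.08, adjusted p = 0.0333) and Col5a1 (0.28 ± 0.07, adjusted p = 0.037). For these 8 every RaptorKO library was above every control library. By group they were 1 of 11 fibrillar, 2 of 7 basement membrane, and 5 of 15 other collagens.

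The last 5 passed under 4 to 8 of the 15 alternatives. The 3 type VI genes ranged from 199 to 378 (Col6a1), 155 to 332 (Col6a2), and 152 to 236 CPM (Col6a3) in RaptorKO and from 182 to 189, 137 to 146, and 132 to 137 CPM in control contralateral nerves, with RaptorKO contralateral 1 and 3 the highest and RaptorKO contralateral 4 the lowest for each. Without RaptorKO contralateral 1 and 3 together their differences were 0.30, 0.39, and 0.35 (adjusted p = 0.134, 0.0787, and 0.0602), 4 genes were higher, and 2 were lower, Col6a5 and Col11a1. The number higher went from 8 to 3 without control contralateral 2 or 3, to 4 without control contralateral 1 or RaptorKO contralateral 1, and to 5 without RaptorKO contralateral 3. Over all genes tested the number higher also fell under these 5 settings, from 533 to 246, 299, 263, 361, and 431, in the same order. Without RaptorKO contralateral 2 the number lower went from 0 to 2, Col23a1 and Col28a1, and without RaptorKO contralateral 3 to 1, Col11a1. The major fibrillar chains had positive differences that did not pass, 0.41 ± 0.15 for Col1a1 (adjusted p = 0.114), 0.27 ± 0.10 for Col1a2 (adjusted p = 0.105), and 0.78 ± 0.27 for Col3a1 (adjusted p = 0.1), and for Col1a1 and Col3a1 RaptorKO contralateral 4 lay within or below the control range. Without that library all 3 passed (0.53, 0.34, and 1.01, adjusted p = 0.0108, 0.0246, and 0.00074). Col4a1 and Col4a2 differed by 0.25 ± 0.09 (adjusted p = 0.131) and -0.01 ± 0.09 (adjusted p = 0.969), and Col28a1 by -0.30 ± 0.11 (adjusted p = 0.131).

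Fibroblast markers summed to between 3586 and 4453 CPM in control and between 5387 and 7797 CPM in RaptorKO contralateral nerves, with 3 of 10 higher and 1 lower. Of all genes tested in contralateral nerves, 4.49% were higher and 5.68% lower. Macrophage markers summed to between 161 and 186 against between 263 and 330 CPM, with 4 of 7 tested higher, and mast cell markers to between 12.25 and 60.2 against between 82.3 and 142 CPM, with 2 of 5 higher. Endothelial markers summed to between 467 and 522 against between 479 and 596 CPM. The part of these cells in the higher collagen levels was not tested.

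Whether the response to crush differed between genotypes was tested as an interaction, the log2 change with crush in RaptorKO minus that in control nerves, over all 13 libraries. Of 33 collagen genes 6 passed, 3 positive and 3 negative, where 2.47% of all 12851 tested genes passed, 1.07% positive and 1.41% negative. The collagen share was above this background in both directions, and the median of the collagens was 0.06 against -0.01 for all genes.

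Negative were Col18a1 (interaction -1.08 ± 0.15, adjusted p = 0.00247), Col16a1 (-0.89 ± 0.20, adjusted p = 0.0314), and Col5a2 (-0.57 ± 0.13, adjusted p = 0.036), each of which rose less with crush in RaptorKO nerves. Positive were Col26a1 (1.60 ± 0.29, adjusted p = 0.00889), which rose more, and Col9a2 (1.53 ± 0.21, adjusted p = 0.00209) and Col5a3 (0.67 ± 0.15, adjusted p = 0.0356), which fell less. Col16a1, Col5a2, Col5a3, Col9a2, and Col26a1 had contralateral log2 differences between genotypes from -0.44 to 0.21, none of which passed. Col18a1 was higher in RaptorKO contralateral and lower in RaptorKO injured nerves.

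The 6 genes are not neighbours in the genome. On GRCm38, Col18a1 (ENSMUSG00000001435) lies on chromosome 10 from 77052178 to 77166548, Col16a1 (ENSMUSG00000040690) on chromosome 4 from 130047840 to 130099283, and Col5a2 (ENSMUSG00000026042) on chromosome 1 from 45374321 to 45503282. Col26a1 (ENSMUSG00000004415) lies on chromosome 5 from 136741759 to 136883209, Col9a2 (ENSMUSG00000028626) on chromosome 4 from 121039385 to 121055322, and Col5a3 (ENSMUSG00000004098) on chromosome 9 from 20770050 to 20815067. Col3a1 lies 24614 bases from Col5a2 and had an interaction of -0.09 ± 0.41 (adjusted p = 0.962).

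Col18a1, Col9a2, and Col26a1 passed under all 20 alternative analyses. Col16a1 passed under 10, Col5a3 under 7, and Col5a2 under 5. Col5a2 was lost when any library but RaptorKO contralateral 4 was left out (adjusted p from 0.0502 to 0.0971), Col5a3 when any but RaptorKO contralateral 2 or 4 or RaptorKO injured 3 was left out (0.0533 to 0.0997), and Col16a1 without control injured 2 or 3, control contralateral 2, RaptorKO injured 2 or 3, or RaptorKO contralateral 1 (0.0555 to 0.0786), and with the replicate number as a block (0.0552). The minor fibrillar Col11a2 had the largest positive value, 2.15 ± 0.55, and passed only without RaptorKO contralateral 2 (2.39, adjusted p = 0.0387), with DESeq2, or without a count filter (adjusted p = 0.0565 with all libraries). Of the 3 negative genes 1 was left without control injured 2 or 3, control contralateral 2, RaptorKO injured 2, or RaptorKO contralateral 1. Over all genes tested the number negative also fell, from 181 to 94, 121, 78, 130, and 101, in the same order.

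**Figure D4:**
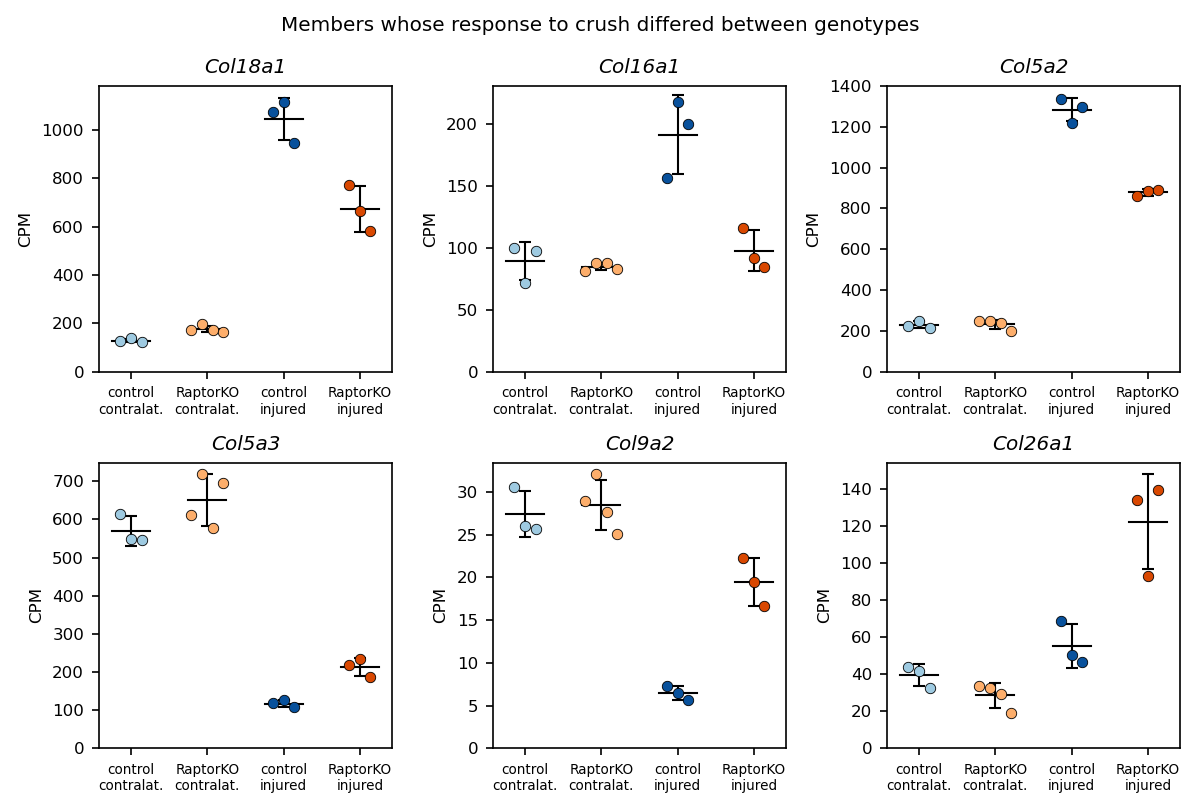
CPM of the 6 collagen genes with an interaction of genotype and injury, 1 point per library, with the group mean and SD as bars. Col18a1, Col16a1, and Col5a2 are lower and Col5a3, Col9a2, and Col26a1 higher in the 3 RaptorKO injured libraries than in the 3 control injured libraries, without overlap. These libraries also entered the interaction test that chose the 6 genes.

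Ratios of counts were compared within libraries for 10 pairs of chains of the same collagen type and for Col3a1 to Col1a1, the major chains of types III and I. For 11 ratios in 4 comparisons this gave 44 exact permutation tests, all 2-sided. With 3 against 3 libraries the smallest possible p is 0.1 and with 4 against 3 it is 0.0571, so that no ratio could pass. The smallest p after Benjamini-Hochberg adjustment was 0.191. The ratio of Col1a1 to Col1a2 was 0.591 ± 0.037 (SD, n = 3) in control contralateral, 0.649 ± 0.064 (n = 4) in RaptorKO contralateral, 0.967 ± 0.098 (n = 3) in control injured, and 1.38 ± 0.05 (n = 3) in RaptorKO injured nerves. The contralateral groups overlapped, and both injured groups lay above them and apart from each other. The ratio of Col5a1 to Col5a2 was 1.36 ± 0.08, 1.61 ± 0.11, 0.343 ± 0.056, and 0.556 ± 0.047 in the same order, with no overlap between any of the groups compared.

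The ratio of Col6a1 to Col6a2 stayed between 1.06 and 1.38 in all 13 libraries and overlapped in all 4 comparisons. That of Col4a1 to Col4a2 lay between 1.07 and 1.15 in control contralateral and between 1.215 and 1.45 in the other 3 groups. Col9a2 to Col9a3 was 4.78 ± 0.50 in control contralateral, 3.94 ± 0.89 in RaptorKO contralateral, 1.95 ± 0.86 in control injured, and 12.1 ± 4.1 in RaptorKO injured nerves, with the injured groups on either side of the contralateral ones and 12 to 45 counts of Col9a3 per injured library. Col8a1 to Col8a2 was 0.638 ± 0.099 and 0.779 ± 0.578 in the contralateral groups and at least 127 in each injured library. By group, the fibrillar collagens held 0.456% ± 0.032, 0.603% ± 0.094, 0.806% ± 0.117, and 1.01% ± 0.15 of all counts in control contralateral, RaptorKO contralateral, control injured, and RaptorKO injured nerves. The basement membrane collagens held 0.231% ± 0.004, 0.286% ± 0.026, 0.243% ± 0.027, and 0.225% ± 0.013.

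**Figure D5:**
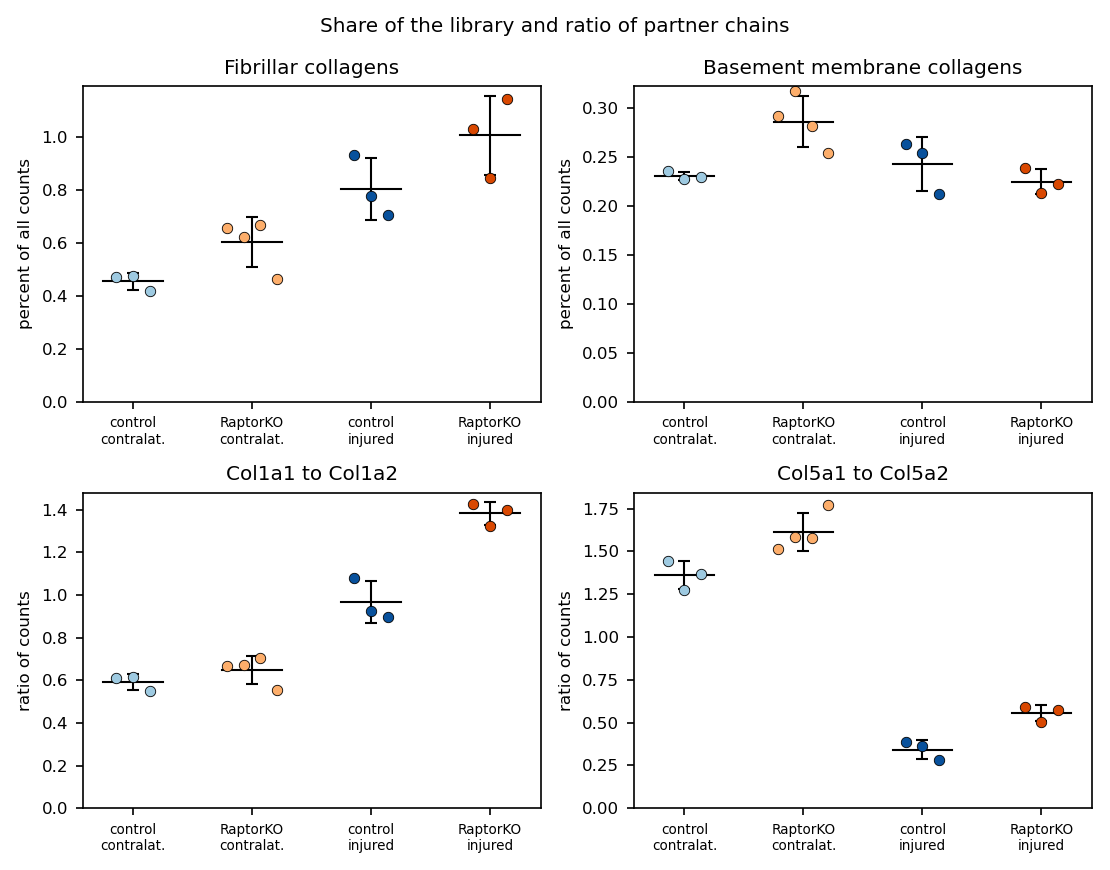
Percent of all counts from fibrillar and basement membrane collagens (top) and count ratios of Col1a1 to Col1a2 and Col5a1 to Col5a2 (bottom), 1 point per library, with group mean and SD. The Col1a1 to Col1a2 ratio is highest in RaptorKO injured nerves (1.38) and the Col5a1 to Col5a2 ratio lowest in control injured nerves (0.343).

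Genes that make, trim, link, or bind collagen were followed in 4 lists. Of 29 genes of collagen synthesis and processing, 13 of 28 tested rose and 8 fell after crush in each genotype, where 32.4% of all genes were higher and 32.9% lower in control and 30.5% higher and 28.5% lower in RaptorKO nerves. Pcolce2, an enhancer of procollagen C-propeptide cleavage, had the largest rise (5.03 ± 0.45 on the log2 scale, adjusted p = 1.04e-06, in control and 4.19 ± 0.61, adjusted p = 0.000166, in RaptorKO nerves). Next came the C-proteinase Bmp1 in control (1.58 ± 0.12, adjusted p = 2.42e-07) and the chaperone Fkbp10 in RaptorKO nerves (1.13 ± 0.17, adjusted p = 0.000239). The largest falls were those of the prolyl 3-hydroxylase P3h2 in control (-2.41 ± 0.16, adjusted p = 6.85e-08), the galactosyltransferase Colgalt2 in RaptorKO nerves (-1.66 ± 0.18, adjusted p = 1.87e-05), and the prolyl 4-hydroxylase subunit P4ha3 in both (-2.04 ± 0.27, adjusted p = 3.36e-05, and -2.45 ± 0.35, adjusted p = 0.000159).

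Between genotypes, 3 of 27 of these genes were higher and 4 lower in RaptorKO injured nerves. The shares of all genes were 4.09% higher and 4.44% lower. Creb3l1, a transcription factor of collagen-secreting cells, and Pcolce were higher (0.72 ± 0.19, adjusted p = 0.0406, and 0.58 ± 0.15, adjusted p = 0.0339), and the proteinase Tll1 and Pcolce2 were lower (-0.63 ± 0.15, adjusted p = 0.0253, and -0.61 ± 0.14, adjusted p = 0.0182). In contralateral nerves 6 of 27 were higher and 2 lower, where 4.49% of all genes were higher and 5.68% lower, led by P3h3 (0.79 ± 0.16, adjusted p = 0.0106), P3h4 (0.65 ± 0.16, adjusted p = 0.0304), P3h2 (-0.84 ± 0.10, adjusted p = 0.000513), and Fkbp14 (-0.34 ± 0.10, adjusted p = 0.0498). The interaction was positive for P3h2 (0.86 ± 0.21, adjusted p = 0.0463) and negative for the lysyl hydroxylase Plod3 (-0.53 ± 0.13, adjusted p = 0.0495) and P4hb, a subunit of prolyl 4-hydroxylase (-0.46 ± 0.11, adjusted p = 0.0422).

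Of 6 cross-linking enzymes, Lox, the lysyl oxidase that links fibrillar chains, averaged 678 CPM in control contralateral and 25.5 CPM in control injured nerves and fell by 4.76 ± 0.18 (adjusted p = 5.84e-10) in control nerves, and it fell by 4.41 ± 0.25 (adjusted p = 1.82e-07) in RaptorKO nerves. Its relatives rose, Loxl2 by 2.15 ± 0.17 (adjusted p = 4.3e-07) and Loxl1 by 1.74 ± 0.25 (adjusted p = 7.74e-05) in control and Loxl4 by 2.97 ± 0.56 (adjusted p = 0.000939) and Loxl2 by 2.10 ± 0.20 (adjusted p = 7.17e-06) in RaptorKO nerves. In all, 4 of 5 tested rose and 1 fell in control and 5 of 6 rose and 1 fell in RaptorKO nerves, where 65.3% and 58.9% of all genes passed. Between genotypes the transglutaminase Tgm2 passed in injured nerves (0.43 ± 0.10, adjusted p = 0.0223), and in contralateral nerves edgeR called 0 of 5. There, 1 was at an unadjusted p below 0.05, a count for which no share of all genes is given. Of all genes, 8.54% passed in injured and 10.2% in contralateral nerves.

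Of 12 collagen receptors, 4 of 10 tested rose and 3 fell after crush in control nerves, and 3 rose and 2 fell in RaptorKO nerves. These shares, 7 of 10 and 5 of 10, were near those of all genes, of which 65.3% and 58.9% passed. The leukocyte receptor Lair1 rose in both (3.15 ± 0.21, adjusted p = 8.25e-08, and 2.92 ± 0.30, adjusted p = 1.4e-05), Itga2, an integrin chain, rose in control (1.32 ± 0.23, adjusted p = 0.000346), and Adgrg1 rose in RaptorKO nerves (1.02 ± 0.16, adjusted p = 0.000263). Itga1 (-0.57 ± 0.17, adjusted p = 0.0119) and Ddr1 (-0.50 ± 0.11, adjusted p = 0.00127) fell in control nerves. Adgrg6, the SC receptor that binds type IV collagen and is needed for myelination, fell most in RaptorKO nerves (-0.75 ± 0.11, adjusted p = 0.000163), followed by Ddr1 (-0.38 ± 0.11, adjusted p = 0.0137). In injured nerves Itga2 (-1.06 ± 0.22, adjusted p = 0.0122) and Adgrg6 (-0.65 ± 0.10, adjusted p = 0.00285) were lower and the endocytic receptor Mrc2 (0.61 ± 0.15, adjusted p = 0.0329) higher in RaptorKO. Of all genes tested in injured nerves, 4.09% were higher and 4.44% lower. In contralateral nerves edgeR called 0 of 9, where 10.2% of all genes passed. There were 3 at an unadjusted p below 0.05, a count for which no share of all genes is given.

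Of 15 fibril-associated proteins, 4 of 13 tested rose and 7 fell after crush in control nerves, and 3 rose and 7 fell in RaptorKO nerves. The share that rose was near that of all genes in control nerves (32.4%), where 32.9% fell, and RaptorKO nerves had 30.5% and 28.5%. Thbs2 had the largest rise in both (4.90 ± 0.18, adjusted p = 5.08e-10, and 3.72 ± 0.14, adjusted p = 1.19e-08), followed by periostin, Postn, in control (3.22 ± 0.35, adjusted p = 6.45e-06) and Aebp1 in RaptorKO nerves (2.35 ± 0.15, adjusted p = 3.18e-07). The small proteoglycans Ogn (-4.30 ± 0.13, adjusted p = 1.29e-10, and -3.62 ± 0.23, adjusted p = 3.73e-07) and Fmod (-4.10 ± 0.70, adjusted p = 0.000278, and -4.64 ± 1.05, adjusted p = 0.00322) fell most. Postn averaged 627 CPM in control and 207 CPM in RaptorKO injured nerves (-1.59 ± 0.19, adjusted p = 0.000896), where Podn was higher (0.65 ± 0.17, adjusted p = 0.0345). In contralateral nerves 5 of 13 were higher in RaptorKO, led by Thbs2 (1.35 ± 0.16, adjusted p = 0.00042) and Podn (0.96 ± 0.11, adjusted p = 0.00042), and 2 were lower, Ogn (-0.93 ± 0.12, adjusted p = 0.000721) and Sparc (-0.32 ± 0.09, adjusted p = 0.0444). Of all genes tested there, 4.49% were higher and 5.68% lower. Thbs2 had the only interaction of this list (-1.21 ± 0.22, adjusted p = 0.0105), and 3 of the 15, Dcn, Lum, and Dpt, are also on the fibroblast marker list.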

How the data were processed

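The authors trimmed the reads with Trimmomatic and estimated expression with RSEM 1.2.22 on GRCm38, per the labels and the methods of the study, and deposited expected counts per gene that are not normalized for depth. RSEM shares reads that match several genes, so 24.93% to 27.95% of the nonzero values of a library were not whole. They were rounded to whole numbers here. The library kit was stranded, but whether counting used strand is not given in the sources used here.

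Groups were taken from the labels. Gene IDs were matched to GENCODE M21 (40634 of 40787). The tools were R 4.3.3, edgeR 4.0.16 (TMM, quasi-likelihood test), limma 3.58.1, and DESeq2 1.42.0, with Python 3.11.15, scipy 1.17.1, and matplotlib 3.10.9 for ratios and figures. A gene was tested with 50 or more counts in at least 2 libraries of the fit. Benjamini-Hochberg adjustment covered all tested genes, and the thresholds were 0.05 for the adjusted p and 1.2 for the fold change. Log2 fold changes use a prior count of 0.125, and standard errors are the log2 fold change divided by the root of the F statistic. Values in every library are given for genes that passed the interaction, the 2 largest changes that passed per group, comparison, and direction, and 6 major collagens. For the 4 related lists the 2 largest per direction are named. The remaining collagen genes are given by their range or counts. The members and lists were chosen with earlier results of these data known. Alternatives were DESeq2, RLE size factors in edgeR, no count filter, a stricter adjusted p of 0.01, the exact test, a replicate block, all 13 libraries in 1 fit, and each library left out. In comparisons between genotypes the replicate block joined nerves of different mice by number alone. The procedure was tested on simulated data. A marker of the SC list is not reported here and was left out of its sums.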

Additional observations from a re-analysis of the deposited data

Results flagged for a closer look

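The level of Col8a2 in RaptorKO contralateral 2 (96.6 CPM) lay far from the other 3 libraries of its group (59.8 to 65.9 CPM). Its gap to the nearest was 0.834 of the whole range of the group, above the critical value of Dixon's test. It was the only one of 44 such groups of 4 libraries, and chance alone gives about 1 in 20.

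There were 6 collagen genes that changed differently with crush in the 2 genotypes, tested as an interaction with edgeR. The values were -1.08 for Col18a1, -0.89 for Col16a1, -0.57 for Col5a2, 0.67 for Col5a3, 1.53 for Col9a2, and 1.60 for Col26a1, each the log2 change in RaptorKO minus that in control nerves. The libraries of the injured groups did not overlap for any of these 6, where 26.2% of all genes did not. These libraries also entered the interaction test that chose the 6, so this adds no separate support.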

How the results depend on the processing

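Of 80 calls of collagen genes over the 5 comparisons, 58 passed under every alternative and 0 reversed. They were 27 of 29 with crush in control nerves, 20 of 27 with crush in RaptorKO nerves, 5 of 10 in injured nerves, 3 of 8 in contralateral nerves, and 3 of 6 in the interaction. For RaptorKO against control in injured nerves, 1 gene was lower at an adjusted p below 0.01, and without single libraries 4 to 11 were higher and 2 to 4 lower. There, 9 were higher with the exact test and 9 without a count filter. In contralateral nerves 3 were higher at an adjusted p below 0.01 and 3 with all 13 libraries in 1 fit, and 1 was lower with DESeq2 and 1 without a count filter. Without single libraries 3 to 12 were higher and 0 to 2 lower there, and without RaptorKO contralateral 1 and 3, chosen after seeing the data, 4 were higher and 2 lower. For the interaction 5 were positive with DESeq2 and 5 without a count filter, and 1 was negative at an adjusted p below 0.01. Without single libraries 2 to 4 were positive and 1 to 3 negative, 1 was negative without RaptorKO contralateral 1 and 3, and 1 without both libraries of control 3, also chosen after seeing the data. With crush, leaving out single libraries gave 15 to 17 higher and 12 to 14 lower in control and 10 to 13 higher and 11 to 14 lower in RaptorKO nerves. Apart from fewer samples and the stricter threshold, the cause was not tested. Within a genotype, deviations of injured and contralateral libraries with the same replicate number correlated between -0.02 and 0.31. Those of control 3, RaptorKO 2, and RaptorKO 3 correlated best with their own number, and the rest did not. This cannot decide whether equal numbers mark the same mouse, and the main fits did not take the numbers as pairs. With the replicate block 13 collagen genes were higher and 1 lower in contralateral nerves, and the other counts stayed within 1.5 times. Between genotypes that block joined different mice of equal number, so it does not test pairing there. Depth limits Col4a3, Col8a2, and Col24a1, with at most 33 counts in any injured library.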
